A study of Mus musculus with 6 samples.

Results

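Eln, Postn, Dcn, Mmp14 and Mmp11 encode proteins that build or cut the extracellular matrix, and their values were higher in epididymal white fat of fasted than of fed mice while most measured collagen genes were lower. These 5 genes, of 3162 held in the deposited files, were chosen by name because they moved this way in the same 6 libraries. Their fed and fasted values are therefore given as a description, with no test. The tissue came from male C57BL/6J mice of wild-type genotype aged 16 weeks, 3 fed normally and 3 deprived of food for 24 h, and total RNA of whole fat pieces was sequenced. Replicate numbers are names only and link no mice across the groups. The comparison asked how short food deprivation alters the transcriptome and lipid metabolism of this depot.

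The extracellular matrix of fat surrounds each adipocyte with basement membrane and joins the cells with fibrillar collagen, elastic fibres and proteoglycans. Fibroblasts, adipose progenitors and vascular smooth muscle cells secrete much of it, and adipocytes add collagens of their own. Elastin gives stretch, matricellular proteins and small proteoglycans steer how collagen fibrils assemble, and metalloproteinases cleave matrix and remodel it as fat cells change size.

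Values are FPKM, fragments assigned to a gene scaled to transcript length and to the number of fragments mapped, so levels of different genes can be compared per length. Summed FPKM over the genes held was 180058 to 209201 per library, which is not a depth, and depth is unknown. The genes held appear to have been selected for differing between these libraries, since the groups did not overlap in 93.4% of them. Log2 fold changes are of FPKM + 1, fasted over fed, with the standard error from limma, and a gene is called when its limma p adjusted by the Benjamini-Hochberg method over 2999 tested genes is under 0.05. Of those genes 1232 were called higher and 1482 lower, and with median-ratio scaling of the libraries 1237 and 787. Over all tested genes the median log2 fold change was -0.34 (-0.15 after median-ratio and -0.21 after quantile scaling).

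All 5 members passed the filter of a mean of at least 1 FPKM, and in all 5 every fasted library lay above every fed library. That was so for 40.8% of all tested genes, and since the members were chosen on this contrast nothing is read from their count.

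Eln encodes tropoelastin, the soluble precursor that is cross-linked into elastic fibres. The gene (ENSMUSG00000029675) spans 134702593 to 134747323 of chromosome 5 in GRCm38, on the minus strand. In fed replicates 1, 2 and 3 it was measured at 43.2, 57.1 and 33.2 FPKM, against 126, 123 and 101 FPKM in fasted replicates 1, 2 and 3. The lowest fasted library was 1.78 times the highest fed one, and the fasted values lay closer together (coefficient of variation 11.5%) than the fed values (27.0%). Group means were 44.5 ± 12.0 and 117 ± 13.4 FPKM (SD, n = 3 each), and the log2 fold change was 1.40 ± 0.20 (SE).

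Postn encodes periostin, a matricellular protein that binds collagen and helps to cross-link it. The gene (ENSMUSG00000027750) spans 54361109 to 54391037 of chromosome 3, on the plus strand. Postn was at 49.8, 37.7 and 28.4 FPKM in fed fat and at 75.2, 75.0 and 61.8 FPKM in fasted fat. Of the 5 genes it had the narrowest gap, the lowest fasted library being 1.24 times the highest fed one. The log2 fold change was 0.89 ± 0.20, from means of 38.6 ± 10.7 and 70.7 ± 7.70 FPKM.

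Dcn encodes decorin, a small leucine-rich proteoglycan that coats collagen fibrils and binds TGF-beta. The gene (ENSMUSG00000019929) spans 97479609 to 97518143 of chromosome 10, on the plus strand. Dcn had 627, 391 and 497 FPKM in fed mice and 831, 1403 and 949 FPKM in fasted mice. Fasted replicate 2 stood well above the other fasted libraries, so that Dcn alone among the 5 varied more among fasted (coefficient of variation 28.5%) than among fed mice (23.4%). With means of 505 ± 118 and 1061 ± 302 FPKM, Dcn had a log2 fold change of 1.06 ± 0.24. Dcn ranked between 41 and 109 from the top of the genes held in the fed libraries and between 9 and 37 in the fasted ones.

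Mmp14 encodes MT1-MMP, a membrane-anchored collagenase that also activates the secreted gelatinase MMP2. The gene (ENSMUSG00000000957) spans 54431612 to 54445364 of chromosome 14, on the plus strand. Fed mice had 14.2, 9.44 and 9.09 FPKM of Mmp14, and fasted mice 19.7, 26.0 and 22.6 FPKM. Fed replicate 1 was the nearest to the fasted group, whose lowest library was 1.39 times as high. The log2 fold change was 1.01 ± 0.19, from means of 10.9 ± 2.85 and 22.8 ± 3.14 FPKM.

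Mmp11 encodes stromelysin-3, a secreted metalloproteinase that is activated inside the cell by furin-type convertases and is known from the stroma of remodelling tissue. The gene (ENSMUSG00000000901) spans 75923222 to 75936496 of chromosome 10, on the minus strand. Mmp11 was low in fed fat, at 4.68, 4.63 and 2.70 FPKM, and reached 31.3, 33.4 and 43.4 FPKM in fasted fat. Here the groups lay farthest apart among the 5, with the lowest fasted library 6.68 times the highest fed library. The log2 fold change was 2.90 ± 0.21, the fasted mean (36.0 ± 6.48 FPKM) being 8.99 times the fed mean.

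**Figure D1:**
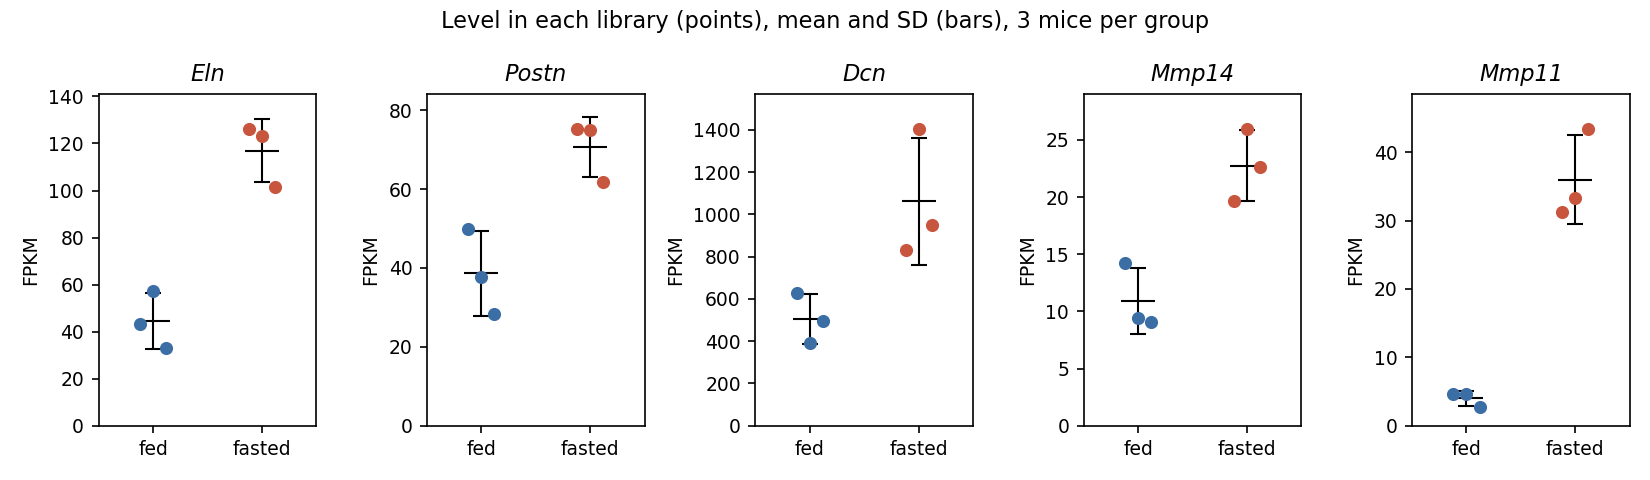
FPKM (linear axes from 0) of Eln, Postn, Dcn, Mmp14 and Mmp11 in each fed and fasted library, as points in order of replicate number, with the mean and SD of the 3 mice of a group as bars. Each fasted point lies above each fed point, with Mmp11 farthest apart (at most 4.68 FPKM fed, at least 31.3 FPKM fasted) and Postn nearest (at most 49.8 and at least 61.8 FPKM).

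The order of levels changed at its lower end. In fed fat it ran Dcn, Eln, Postn, Mmp14 and Mmp11, where Eln and Postn overlapped across libraries and the other neighbours did not. In fasted fat Dcn, Eln and Postn kept this order without overlap, and Mmp11 stood above Mmp14, again without overlap. The ratio of Mmp11 to Mmp14 within a library was 0.330, 0.491 and 0.297 in fed mice against 1.59, 1.29 and 1.92 in fasted mice. The ratio of Eln to Postn was 0.868 to 1.52 in fed and 1.64 to 1.68 in fasted libraries, so that this pair kept a nearly constant proportion in the 3 fasted mice.

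The members did not share 1 order across mice of a group. In fed mice, 4 of them were highest in replicate 1 (all but Eln) and 4 were lowest in replicate 3 (all but Dcn). Among fasted mice, Eln and Postn were highest in replicate 1, Dcn and Mmp14 in replicate 2, and Mmp11 in replicate 3.

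The profile of each gene over the 6 libraries was compared with those of all tested genes by the root-mean-square difference of log2(FPKM + 1) after each profile was centred on its own mean. Nearest to Eln were Msc (0.161), Sox4 (0.166) and Cygb (0.167), nearest to Postn were Nav1 (0.0856), Tob1 (0.105) and Slc19a2 (0.106), and nearest to Dcn were Fam129b (0.0812), Smad6 (0.134) and Map3k6 (0.135). Mmp14 was nearest to Fez1 (0.0917), Nqo1 (0.103) and Vcam1 (0.119). Mmp11 had no neighbour as close, the first being Rassf6 (0.361) and Fbxo21 (0.453). Within the set, Mmp14 and Dcn (0.171) and Mmp14 and Postn (0.188) were the nearest pairs, whereas Mmp11 differed from each of the others by 0.796 or more. Because the genes held appear to have been selected on these libraries, many profiles have the same 2-level shape, and these distances are a description only.

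Most collagen genes moved the other way. Of 15 measured members of a list of 44 collagen genes, 13 were tested and all 13 were lower in fasted fat, with a median log2 fold change of -1.18 beside -0.34 for all tested genes. The other 2 were under the filter. Col12a1 was lower, at 0.45 to 1.28 FPKM in fed and 0.29 to 0.33 FPKM in fasted mice, and Col13a1, a transmembrane collagen, was higher, at 0.04 to 0.20 FPKM in fed and 0.49 to 0.84 FPKM in fasted mice, and was called higher when no filter was applied. Col15a1, a basement membrane zone collagen (-3.56 ± 0.32), Col3a1, which forms fibrils (-1.34 ± 0.11), and Col4a1, the core of basement membrane (-0.96 ± 0.12), had the smallest p. Col1a1 (-0.36 ± 0.15) and Col1a2 (-0.38 ± 0.14), the chains of type I collagen named after their values were seen, were no longer called with median-ratio or quantile scaling. Col1a1 was also not called when fed replicate 2, fed replicate 3 or any 1 fasted library was left out, nor was Col1a2 when fed replicate 1, fed replicate 2, fasted replicate 1 or fasted replicate 3 was. Since the direction of the collagens belongs to the way the 5 genes were chosen, this contrast is not independent evidence.

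A ratio within a library does not depend on scaling between libraries. Against the geometric mean of the 13 tested collagen genes, Eln stood at 0.480, 0.490 and 0.461 in fed mice and at 3.62, 3.26 and 2.79 in fasted mice. The fed ratios of Eln differed far less between mice (mean 0.477 ± 0.015) than its FPKM did, because Eln and the collagens were both highest in fed replicate 2 and lowest in fed replicate 3. Expressed as the fold between geometric means, the ratio to collagens was 6.73 times as high in fasted fat for Eln, 4.70 for Postn, 5.24 for Dcn, 5.32 for Mmp14 and 23.0 for Mmp11. Against Col1a1, Col1a2 and Col3a1 alone the folds were smaller, at 4.36, 3.04, 3.40, 3.44 and 14.9 in the same order. The groups did not overlap for any of the 5 genes by either ratio. That was fixed in advance, since each gene was higher and these collagens lower in every fasted library, and nothing is read from it.

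**Figure D2:**
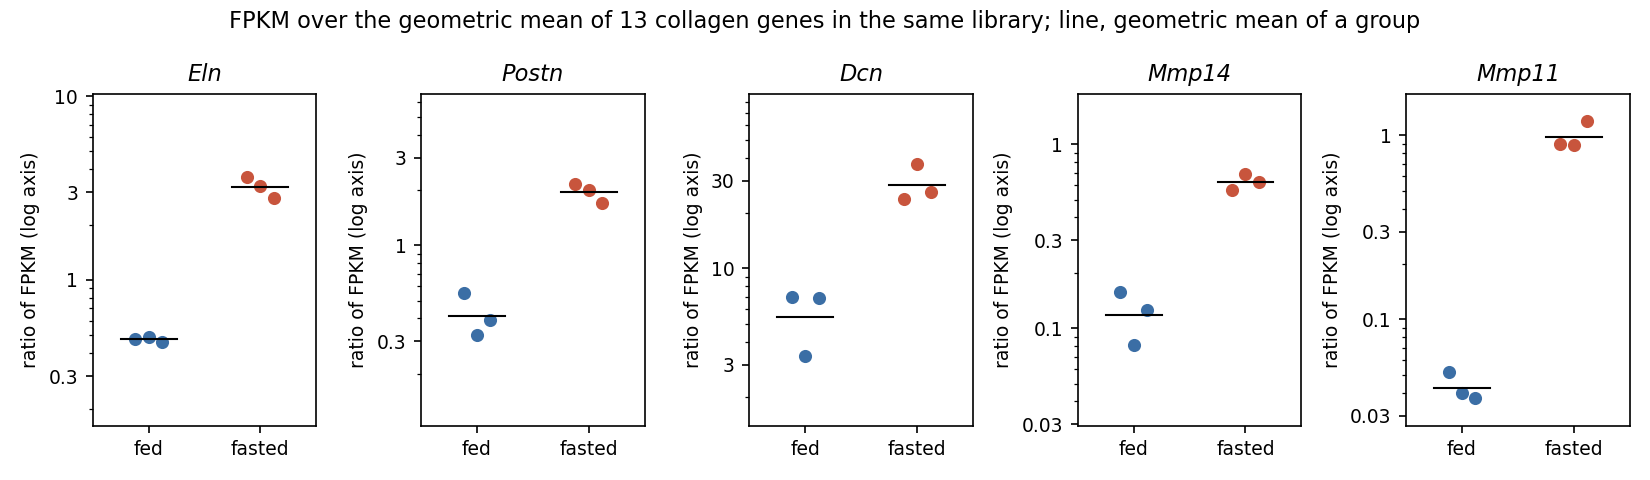
Ratio of each gene's FPKM to the geometric mean FPKM of 13 collagen genes in the same library (log axes, each spanning the same number of decades), with points for libraries and a line at the geometric mean of each group. The 3 fed ratios of Eln lie almost on 1 level near 0.477, and the widest separation is that of Mmp11, with a fold of 23.0.

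Other matrix genes were counted from lists of 11 roles, which were drawn up with earlier results of these data known. Outside the 5 members, 88 listed genes were tested, of which 22 were called higher (25.0%) and 59 lower (67.0%), beside 41.1% higher and 49.4% lower among all tested genes. Their median log2 fold change was -0.71. Without the collagens, whose direction belongs to the choice of genes, 22 of 75 were higher (29.3%) and 46 lower (61.3%), with a median of -0.56. Over all 88 genes, collagens included, 23 were higher and 38 lower with median-ratio scaling, beside 1237 and 787 of the 2999 genes tested. With adjustment over every annotated gene, 6 of the 88 were higher and 15 lower, beside 5.74% and 6.4% of all tested genes. Leaving out the collagens, this adjustment left 6 higher and 7 lower. The shares of all tested genes in this paragraph are the background for each list below.

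Elastic fibre genes went both ways around Eln. Of 10 others tested, 4 rose (40.0%), 5 fell (50.0%) and 1 was not called. These shares were close to the 41.1% higher and 49.4% lower of all tested genes, so nothing is read from the counts. Mfap2, a microfibril component, went from 1.89 to 2.79 FPKM in fed to 8.25 to 10.4 FPKM in fasted libraries (log2 fold change 1.54 ± 0.17), the rise nearest in size to that of Eln. Fbln5, the fibulin that brings tropoelastin to microfibrils, rose by 0.91 ± 0.17, and Ltbp4, a latent TGF-beta binding protein needed for elastic fibre assembly, by 0.53 ± 0.12. Mmrn1, a multimerin of endothelium and platelets, rose by 1.20 ± 0.34 from levels of 0.06 to 0.66 FPKM. The genes that fell were Loxl1, which cross-links elastin (-1.03 ± 0.26), Ltbp3 (-0.73 ± 0.16), Ltbp2 (-0.79 ± 0.24), Efemp1 (-0.97 ± 0.32) and Emilin2 (-1.20 ± 0.47), and the calls of the last 3 were lost with median-ratio scaling. Those of Efemp1 and Emilin2 were also lost under quantile scaling, or when fed replicate 2, fed replicate 3, fasted replicate 1 or fasted replicate 3 was left out. That of Ltbp2 was lost without fasted replicate 1 or 2. Without fasted replicate 2 or 3 Mmrn1 was under the filter of a mean of at least 1 FPKM and was not tested. Emilin1 was at -0.33 ± 0.14 and was called lower only under quantile scaling or when fed replicate 1 was left out. Eln was thus 1.04 to 2.22 times the level of Loxl1 in fed libraries and 6.80 to 12.2 times in fasted libraries. This lack of overlap was given in advance, since Eln was higher and Loxl1 lower in every fasted library. The ratio of Eln to Fbln5 overlapped between the groups (1.09 to 2.17 fed, 2.08 to 2.82 fasted).

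Among the 8 other matricellular genes tested, 2 rose (25.0%), 5 fell (62.5%) and 1 was not called. Over all tested genes 41.1% were higher and 49.4% lower. Thbs2, an anti-angiogenic thrombospondin (1.46 ± 0.26), and Ccn3 (0.95 ± 0.14) rose beside Postn. Sparc, a collagen-binding glycoprotein made in quantity by adipocytes, fell by 1.04 on the log2 scale, from 2030, 2699 and 2305 FPKM in fed mice to 1108, 1026 and 1274 FPKM in fasted mice. Matn2 fell by 1.83 on the log2 scale, and Spon2 fell from 4.86 to 10.2 FPKM in fed mice to 2.13 to 4.04 FPKM in fasted mice. Only 2 small leucine-rich proteoglycan genes of 17 listed were held, Dcn and Prelp, which anchors basement membrane to connective tissue. Prelp fell by 2.10 on the log2 scale, to 70.6, 63.7 and 171 FPKM from 341, 491 and 374 FPKM. The ratio of Dcn to Prelp was 0.796 to 1.84 in fed and 5.55 to 22.0 in fasted libraries. Here too the lack of overlap was given in advance, since Dcn was higher and Prelp lower in every fasted library.

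Large proteoglycan and basement membrane genes had 3 rises (30.0%) and 6 falls (60.0%) among 10 tested, beside 41.1% and 49.4% of all tested genes. With median-ratio scaling 3 of the 10 fell, beside 787 of all 2999 tested genes, and nothing is read from these counts. Nid2 (-1.77 ± 0.23), Nid1 (-0.90 ± 0.17) and Lamc1 (-0.75 ± 0.12), which join laminin and collagen networks or form laminin itself, fell. Npnt, an integrin ligand (1.27 ± 0.20), Egfl7 (0.88 ± 0.25) and Lama5 (0.94 ± 0.28) rose. Enzymes and chaperones that modify collagen fell in 9 of 11 cases (5 with median-ratio scaling), led by Serpinh1, the collagen chaperone HSP47 (-2.27 ± 0.32), P4hb, a subunit of collagen prolyl hydroxylase (-0.56 ± 0.11), and Plod3, a lysyl hydroxylase (-0.92 ± 0.19). P3h3 (0.62 ± 0.13) was the 1 that rose.

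**Figure D3:**
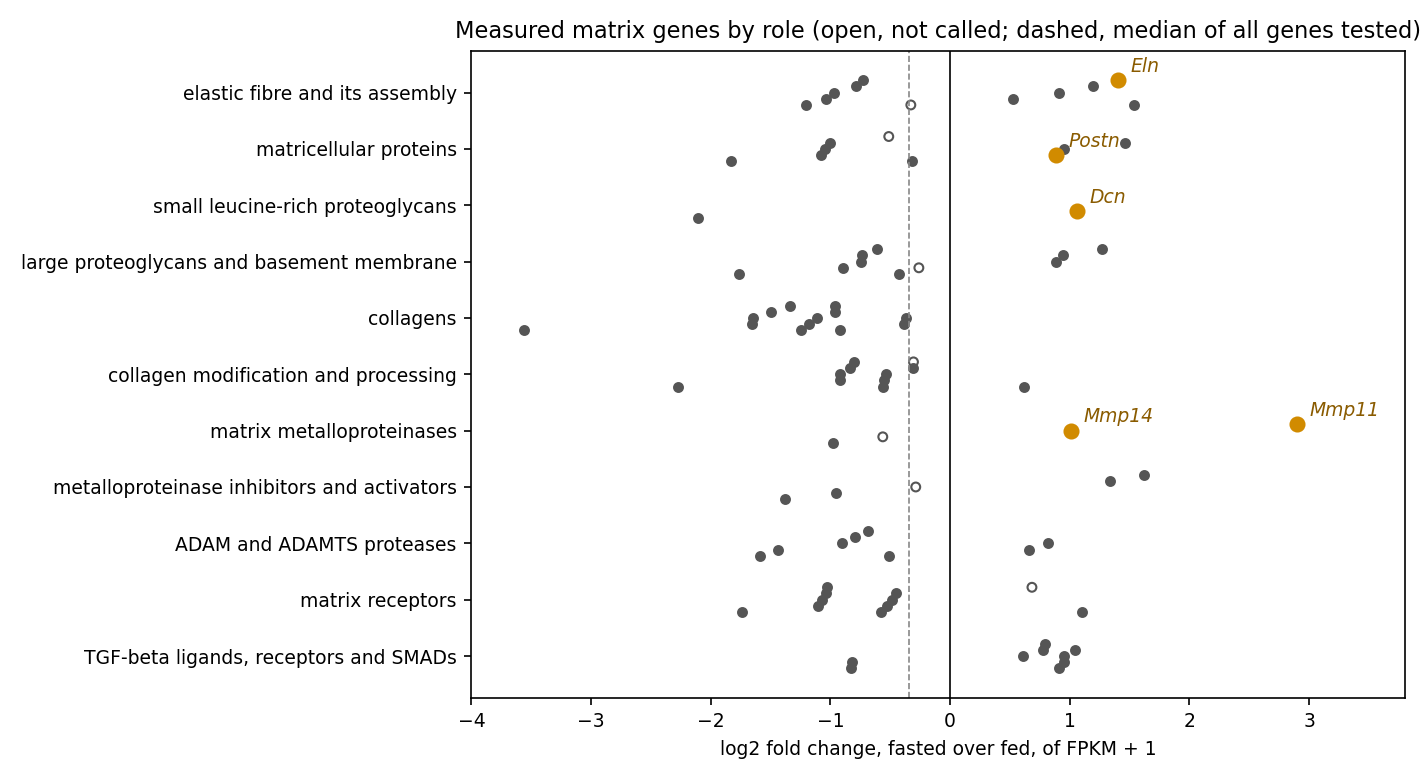
Log2 fold change (fasted over fed, of FPKM + 1) of each tested matrix gene in 11 role lists, with the 5 named genes in orange, genes not called as open circles and the median of all tested genes as a dashed line at -0.34. All 13 collagens lie left of 0, the elastic fibre and metalloproteinase lists have genes on both sides, and 7 of 9 genes of the TGF-beta list lie right of 0.

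Of 23 metalloproteinase genes listed, 4 were held. Beside Mmp14 and Mmp11, Mmp19 fell (-0.98 ± 0.30, called neither with median-ratio scaling nor without fasted replicate 1 or 3), and Mmp15 was at -0.56 ± 0.27 and was not called, except when fed replicate 1 was left out. Timp4, a tissue inhibitor of metalloproteinases made by adipocytes, fell by 1.38 on the log2 scale, with 155, 230 and 280 FPKM in fed and 74.7, 74.7 and 98.8 FPKM in fasted libraries. Within a library Mmp14 stood at 0.0325 to 0.0913 of the level of Timp4 in fed and 0.229 to 0.347 in fasted fat. A lack of overlap was given in advance here, since Mmp14 was higher and Timp4 lower in every fasted library. Furin and the other TIMP genes were not among the genes held. Among genes that activate these proteases, Pcsk5, a furin-like convertase (1.62 ± 0.19), and Plau, the urokinase that generates plasmin (1.33 ± 0.16), rose. The hyaluronan receptor gene Cd44 fell (-0.95 ± 0.25), and Bsg, which encodes an inducer of metalloproteinases, was at -0.29 ± 0.13 and was not called.

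Genes of the ADAM, ADAMTS and ADAMTS-like families fell in 6 of 8 cases (4 with median-ratio scaling). Among them were the ADAMTS-like genes Adamtsl4 (-1.44 ± 0.14) and Adamtsl2 (-0.90 ± 0.18), which are not proteases, and the aggrecanase gene Adamts5 (-1.58 ± 0.44). Adamts4, another aggrecanase gene (0.82 ± 0.23), and Adamts6 (0.66 ± 0.26) rose, the latter not called under quantile scaling or when fed replicate 2, fed replicate 3, fasted replicate 1 or fasted replicate 2 was left out. Without fasted replicate 1 Adamts6 was under the filter and was not tested. Matrix receptors fell in 9 of 11 cases (5 with median-ratio scaling, where 2 rose), led by the laminin-binding integrin gene Itga7 (-1.74 ± 0.16) and the glypican genes Gpc4 (-1.10 ± 0.14) and Gpc1 (-1.03 ± 0.24), and Itga3 rose (1.10 ± 0.24). The TGF-beta list had 7 rises and 2 falls among 9. Eng, a co-receptor of endothelium (1.04 ± 0.14), and the inhibitory SMAD genes Smad7 (0.95 ± 0.19) and Smad6 (0.95 ± 0.20) rose, while the ligand genes Tgfb3 (-0.82 ± 0.15) and Inhbb (-0.83 ± 0.28) fell. Inhbb was not called under median-ratio scaling or when any of those 4 libraries was left out. The median of this list was 0.80.

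Markers of other cells in the tissue also differed between the groups, and in whole tissue fewer cells of a type and less RNA per cell cannot be told apart. Among all tested genes 41.1% were called higher and 49.4% lower, and the genes held appear to have been selected for differing. Listed markers that are not held may thus be unchanged, and nothing is read from the counts of markers. Adipocyte markers were present, with 8 of 18 listed genes measured and all 8 lower in fasted fat (summed level 6471 to 7735 FPKM fed and 3670 to 4336 FPKM fasted). Retn made up most of this summed level (3761 to 4786 FPKM fed, 2670 to 2895 FPKM fasted). Of 20 listed fibroblast and progenitor genes 5 were measured. Pdgfrb, Ly6a, Ly6c1 and Icam1 rose and Cd248 fell, and the summed level was 399 to 575 FPKM in fed and 710 to 1075 FPKM in fasted libraries. Most of that sum came from Ly6c1 (249 to 359 FPKM fed, 470 to 743 FPKM fasted) and Ly6a (112 to 180 and 197 to 306 FPKM). Whether these 5 genes mark fibroblasts and progenitors alone in this tissue was not tested, and genes listed for other cells rose too. Of 12 smooth muscle and pericyte genes 9 were measured, 7 rose, among them Tagln, Myh11 and Cnn1, and 2 fell, Mcam and Cspg4, with overlapping sums (263 to 372 and 287 to 356 FPKM). Mcam, which fell, made up most of the fed sums (199 to 263 FPKM fed, 80.6 to 148 FPKM fasted). The overlap of the sums therefore does not show that the other genes of this list were unchanged. All 3 measured endothelial genes (123 to 140 and 199 to 261 FPKM summed) and all 5 measured red cell genes (1892 to 2800 and 3955 to 10140 FPKM summed) rose. Macrophage and lymphocyte lists had 1 measured gene each. Itgam fell, from 4.55 to 8.38 FPKM in fed to 2.12 to 3.86 FPKM in fasted mice, and Cd3e, under the filter, was at 0.15 to 0.23 FPKM in fed and 0.89 to 0.98 FPKM in fasted mice. No gene of the mesothelial list was among the genes held. The epididymal gene Adam7 was at 2.05 FPKM in fed replicate 2, at 0.03 FPKM or less elsewhere and at 0 in 2 fasted libraries.

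Set against the geometric mean of the 5 fibroblast genes in the same library, a ratio chosen after the values were seen, Dcn (11.5 to 15.7 fed, 14.2 to 24.7 fasted) and Mmp14 (0.245 to 0.356 fed, 0.336 to 0.484 fasted) overlapped between the groups. Postn was at 0.764 to 1.25 in fed and 1.28 to 1.32 in fasted libraries, and Eln at 0.895 to 1.68 and 2.15 to 2.17. Mmp11 stood apart most, at 0.0727 to 0.136 and 0.533 to 0.928, a fold of 6.30. Against the geometric mean of the 9 smooth muscle and pericyte genes, likewise chosen after the values were seen, Eln, Postn, Dcn and Mmp14 overlapped and Mmp11 did not (0.408 to 0.733 fed, 1.45 to 3.19 fasted). Each gene weighs equally in that mean. Of the 9 genes 7 rose, among them Actg2, from 0.22 to 2.82 FPKM in fed to 5.21 to 8.51 FPKM in fasted libraries. The overlap is thus with genes that mostly rose themselves. The part of cell composition in the differences of the 5 genes was not tested.

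Mmp11 overlaps Chchd10, a gene for a protein of the mitochondrial intermembrane space, on the opposite strand. In the GENCODE M21 annotation (GRCm38) the shared exonic bases are 155, on chromosome 10 at 75936291 to 75936445, which is 5.58% of the exonic bases of Mmp11 and 9.84% of those of Chchd10. They lie in the first exon of 1 of the 6 annotated Mmp11 transcripts, and the other transcripts share no exon with Chchd10. Chchd10 was at 69.1, 27.4 and 48.2 FPKM in fed mice and at 428, 316 and 358 FPKM in fasted mice (log2 fold change 2.99 ± 0.30). The ratio of Mmp11 to Chchd10 overlapped between groups (0.0560 to 0.169 fed, 0.0730 to 0.121 fasted), so the 2 genes differed by similar factors. Between mice of a group they did not move in step: Mmp11 was 4.68 and 4.63 FPKM in fed replicates 1 and 2 where Chchd10 was 69.1 and 27.4, and the highest fasted Chchd10 and the lowest fasted Mmp11 were in the same library. FPKM here carries no strand, and the part of shared reads in the value of Mmp11 was not tested. Eln also shares 267 exonic bases (3.30% of its own) with the antisense gene Gm30003, which was not among the genes held.

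**Figure D4:**
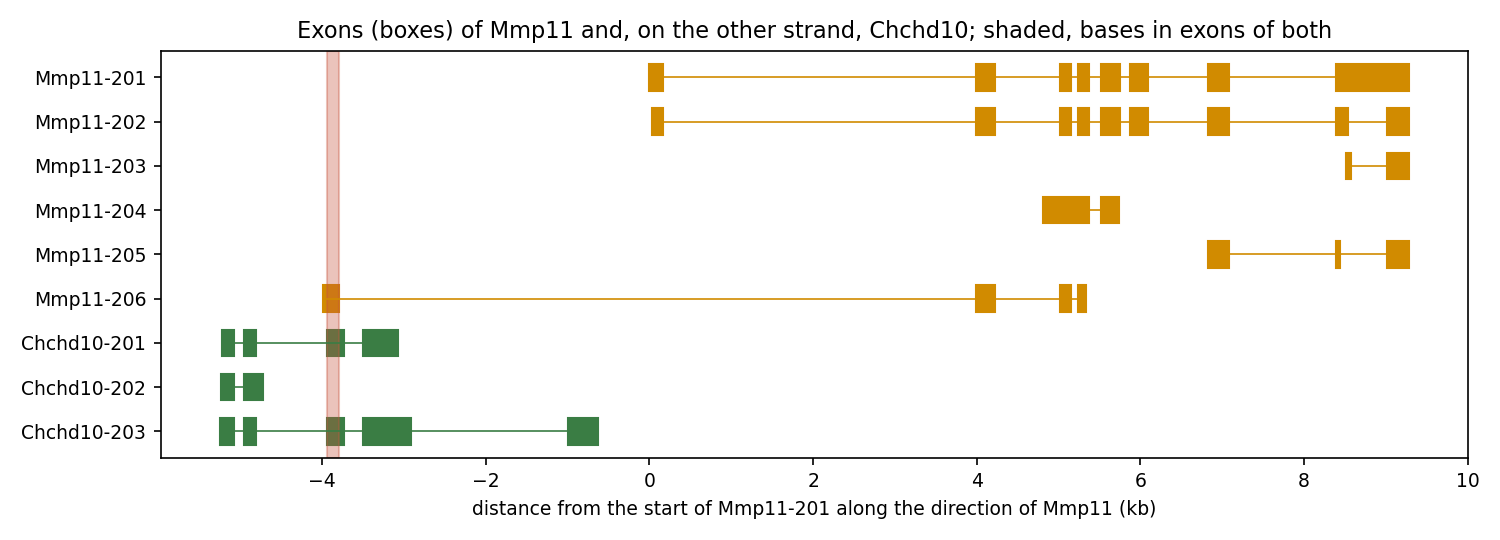
Annotated transcripts of Mmp11 (orange) and of Chchd10 on the other strand (green), with exons as boxes, along the distance in kb from the start of the topmost Mmp11 transcript in the direction of Mmp11. The shaded strip marks the 155 bases that are exonic in both genes, and among the Mmp11 transcripts it meets only the first exon of the lowest one drawn.

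Promoter sequence is shown because the genes had the same direction in the same mice. RefSeq promoters (GRCm38.p6) matched Postn, Mmp14 and Mmp11, which is 3 of the 5 genes, and Chchd10, but not Eln or Dcn. The 250 bases before the annotated start follow, 5′ to 3′ on the strand of the gene, at chr3:54360857-54361106 (plus) for the downstream of 2 Postn starts, chr14:54431348-54431597 (plus) for Mmp14, chr10:75932503-75932752 (minus) for Mmp11 and chr10:75932880-75933129 (plus) for Chchd10. Capitals mark every match to a searched motif on either strand.
Postn: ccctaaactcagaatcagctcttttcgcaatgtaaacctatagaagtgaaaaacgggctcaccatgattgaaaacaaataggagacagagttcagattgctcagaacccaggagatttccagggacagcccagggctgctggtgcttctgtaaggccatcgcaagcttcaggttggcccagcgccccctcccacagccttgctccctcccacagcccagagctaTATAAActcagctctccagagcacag
Mmp14: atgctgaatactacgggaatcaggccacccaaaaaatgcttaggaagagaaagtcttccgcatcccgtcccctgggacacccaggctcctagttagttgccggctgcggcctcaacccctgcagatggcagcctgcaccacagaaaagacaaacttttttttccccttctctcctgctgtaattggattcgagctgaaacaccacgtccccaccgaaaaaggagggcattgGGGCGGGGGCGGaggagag
Mmp11: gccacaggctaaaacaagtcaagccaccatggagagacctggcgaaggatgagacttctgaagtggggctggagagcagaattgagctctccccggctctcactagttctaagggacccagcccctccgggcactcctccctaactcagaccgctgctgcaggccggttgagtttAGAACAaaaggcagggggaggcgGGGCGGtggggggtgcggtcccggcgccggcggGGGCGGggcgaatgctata
Chchd10: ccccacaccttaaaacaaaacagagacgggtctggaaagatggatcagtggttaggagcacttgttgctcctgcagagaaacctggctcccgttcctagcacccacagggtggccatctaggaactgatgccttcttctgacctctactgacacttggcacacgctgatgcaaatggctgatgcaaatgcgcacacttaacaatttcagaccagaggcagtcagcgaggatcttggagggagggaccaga

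Motifs were searched on both strands. Those of the core promoter were the TATA box, spelled TATAAA, and the GC box that SP1-type factors bind, spelled GGGCGG. For the glucocorticoid receptor, a factor active in fasting, the search took the single element spelled AGAACA and, by name alone, the full site that contains it. For FOXO factors, which insulin holds in check, the letters were GTAAACA. The AP-1 motif of growth and stress signals was searched as TGANTCA. The E-box was searched as CACGTG. The palindrome bound by SMAD factors was searched as GTCTAGAC. Postn held 1 TATAAA, 26 to 21 bases before the start, a motif in 12.4% of 32851 RefSeq promoter windows of this length and 7.23% of the 3166 windows of genes held. Mmp14 and Mmp11 each held 2 GGGCGG matches, found in 32.7% of all windows and 58.2% of those of genes held, with 1 at 19 to 14 bases before the start in both genes. Mmp11 also held 1 AGAACA, 75 to 70 bases before the start, found in 16.1% of all windows and 10.8% of those of genes held. No other searched motif matched in these windows, and the upstream Postn start and the Chchd10 window held no match. GTAAACA occurred in 3.17% of windows, TGANTCA in 6.75%, CACGTG in 6.02%, GTCTAGAC in 0.167% and the full glucocorticoid receptor site in 0.00913%. GC content was 63.2% for Mmp11, 55.2% for Mmp14, 52.0% for Postn and 52.4% for Chchd10, beside a median of 52.4% over all windows. The searched letters thus had no match common to the 3 genes. The transcript of Mmp11 that begins at this promoter and the longest Chchd10 transcript start 628 bases apart and run away from each other.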

How the data were processed

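Bulk RNA sequencing of 6 libraries was deposited by the authors as FPKM per gene with at most 2 decimals, per the file headers. The submitters' processing notes name RSEM with mm10 and GRCm38.p6. For the aligner, and for how the 3162 genes were picked, no statement was found: neither is given in the sources used here. Counts were not used, so depth and counting error are unknown. Of the identifiers, 3158 matched GENCODE M21 (GRCm38), which gave coordinates. Expression was fitted with limma 3.58.1 (R 4.3.3; lmFit, eBayes with trend) on log2(FPKM + 1), two-sided, after leaving out genes whose mean was under 1 FPKM (2999 remained), and tested on simulated data first. As the genes appear to have been selected on these libraries, the adjusted p is not a genome-wide rate. The 5 genes and all lists were chosen with earlier results of these data known. Named genes were the 5 genes, Chchd10, up to 3 called genes of each direction per role list with the smallest p, all held elastic fibre, small proteoglycan, metalloproteinase and TIMP genes, and the 3 nearest profiles, of which 1 is not reported here; other names were chosen after their values were seen. Alternatives were a pseudocount of 0.1, no filter, median-ratio and quantile scaling, each library left out, and adjustment over 55450 annotated genes. FPKM ratios were computed within libraries.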

Additional observations from a re-analysis of the deposited data

How the results depend on the processing

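The direction of all 5 genes was the same in each of the alternatives run. Their log2 fold changes with 1 library left out ranged from 1.21 to 1.59 for Eln, 0.69 to 1.08 for Postn, 0.84 to 1.23 for Dcn, 0.91 to 1.20 for Mmp14 and 2.70 to 3.00 for Mmp11; as the genes were chosen for groups that do not overlap, this is no sign of stability. With median-ratio scaling they were 1.60, 1.09, 1.27, 1.21 and 3.08 in that order, and 787 genes in all and 38 other matrix genes were lower, against 1482 and 59; these 38 were all among the 59. With adjustment over all annotated genes, 172 genes were higher and 192 lower, and 6 and 15 of the other matrix genes; this adjustment is stricter by construction. Against Col1a1, Col1a2 and Col3a1 alone, the log2 difference of the ratio to collagens was 2.12 for Eln, 1.61 for Postn, 1.76 for Dcn, 1.79 for Mmp14 and 3.90 for Mmp11, against 2.75, 2.23, 2.39, 2.41 and 4.53 with 13 collagens, because these 3 include the collagens that fell least. With 1 library left out, 19 to 22 other matrix genes were higher and 43 to 56 lower. No paired analysis was possible because the replicate numbers follow accession order and link no mice. Depth is unknown, so its limits could not be given.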

Other observations

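Protein-coding genes within 100 kb of each of the 5 genes were listed after the values had been seen. Around Mmp11, 6 of 9 such genes were held, against 1 of 7 around Mmp14 and 0 of 3, 0 of 1 and 0 of 2 around Eln, Postn and Dcn, while 14.4% of all annotated protein-coding genes were held. All 5 tested neighbours of Mmp11 were called higher in fasted fat by limma, as were 41.1% of all tested genes and the 1 held neighbour of Mmp14, Haus4 (log2 fold change 0.80 ± 0.23). Beside Chchd10 they were Gstt2, a glutathione transferase gene (18.5 ± 4.83 FPKM fed, 91.7 ± 18.7 FPKM fasted, SD, n = 3; log2 fold change 2.26 ± 0.21), Mif, a cytokine gene (87.2 ± 19.0 and 159 ± 25.1 FPKM; 0.87 ± 0.18), Derl3, a gene of ER-associated degradation (1.15 ± 0.14 and 4.01 ± 0.56 FPKM; 1.22 ± 0.16), and Gm867 (1.68 ± 1.11 and 12.0 ± 4.20 FPKM; 2.31 ± 0.32). Vpreb3 was below the filter, at 0.11 to 0.20 FPKM in fed and 0.93 to 1.36 FPKM in fasted libraries. Whether genes of this interval moved together was not tested.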
